A study of Mus musculus with 16 samples.

Results

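The response of cortical bone to mechanical loading was followed across all 16 RNA-seq libraries of the series, with 1 common loading term for both genotypes. The 8 loaded right tibiae were compared with the 8 non-loaded left tibiae of the same 8 male mice, aged 16 weeks, of which 4 were labelled Ctrl and 4 NT3-Cre+ (called NT3 here). By the series title, NIK, a kinase upstream of NF-kB whose gene is Map3k14, was made active in cells of the bone-forming lineage. The labels do not say which allele NT3 stands for, which promoter drives Cre, or what alleles Ctrl mice carry. Right tibiae were compressed along their axis for 1200 cycles a day at 4 Hz on 9 days. Ctrl limbs were loaded at 8.7 N and NT3 limbs at 10.0 N, to reach -2000 microstrain in both, so force and genotype cannot be told apart. Loading and body side cannot be told apart either, because every loaded bone was a right tibia. Bones were stripped of muscle, spun to remove marrow and taken 4 hours after the last bout, and the mean RNA integrity number given was 5.4.

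Bone adapts to strain: osteocytes buried in the matrix sense deformation, and osteoblasts at the surface respond by laying down an extracellular matrix of type I collagen with smaller amounts of collagens III, V and XI, which is then mineralized. Repeated axial compression of the mouse tibia is a standard way to provoke this response, with the opposite limb as an internal control. A term common to both genotypes averages the response over all 8 mice and can show small changes that recur in every mouse.

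Libraries held 758394 to 1064391 counted fragments. Each row of a count file carries a gene name, and many rows share exon positions with another gene on the opposite strand: 88% of the matched rows with a mean of at least 100 fragments did, against 15.3% of the others. The strand setting of the counting is not given, so the strand that a row's fragments came from is not known. Actb held 11 to 33 fragments in a library, while Gm11505, opposite Mpo, held a mean of 3381. Whether fragments were counted on the strand opposite their gene was not tested. Rows are therefore given with the gene opposite, and a row's value may not measure the gene that names it. Rows named for genes that define bone cells were present but shallow. Col1a1 held 34 to 195 fragments in non-loaded and 163 to 430 in loaded limbs, Mepe 69 to 127 and 34 to 114, while the osteocalcin row Bglap held at most 4 in any library. Map3k14 held 1 to 9 fragments in a library and could not be tested. Levels below are counts per 1000000 fragments after scaling by the trimmed mean of M values (CPM), and for each group of 8 limbs the lowest, the median and the highest are given.

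The common term called 279 of 7192 tested rows at an adjusted p under 0.05 (3.88%), 206 rising with load (2.86%) and 73 falling (1.02%), and 1089 rows had an unadjusted p under 0.05. All 279 had the same sign of change in Ctrl and in NT3, as did 58.2% of all tested rows. The common term averages these same changes and so favours rows with 1 sign in both. The count therefore describes the called rows and tests nothing. The median called rising row changed by 0.81 on the log2 scale, and the medians within the genotypes were 1.04 in Ctrl and 0.61 in NT3. Falling rows had a median of -0.45, with -0.51 in Ctrl and -0.40 in NT3, so falls were smaller than rises. With terms fitted per genotype, 293 rows were called in Ctrl (4.07%) and 30 in NT3 (0.417%). The difference between the genotypes was called for 10 rows (0.139%), and 7 of these were among the 206 rising rows and 0 among the 73 falling ones. Among the falling rows called by edgeR's common term, the count depended on single mice and was 31, 43, 48 and 44 without Ctrl mouse 1, Ctrl mouse 2, Ctrl mouse 3 and NT3 mouse 4. Falling calls numbered 27 without the block for mouse and 34 with the DESeq2 Wald test, and all calls in Ctrl and NT3 were 171 and 5 without the block.

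**Figure D1:**
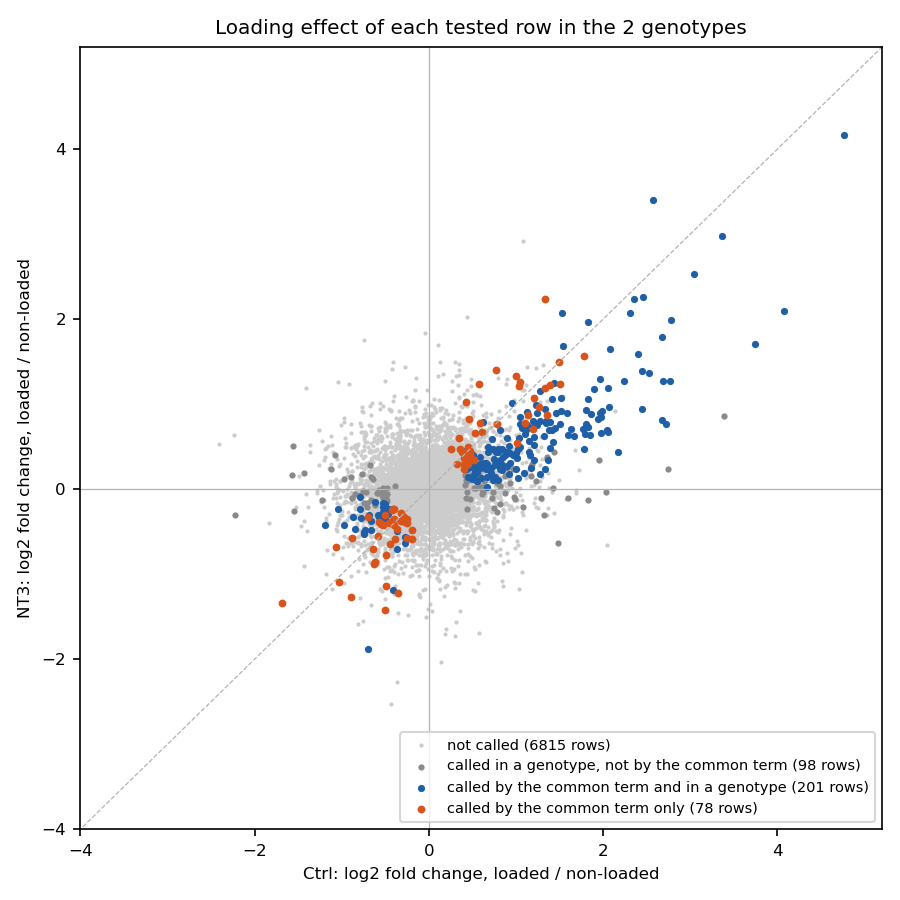
Loading log2 fold change of each tested row in Ctrl (x axis) and in NT3 (y axis), with colour by call; the dashed line marks equal change and 1 row lies outside the axes. The 78 rows called by the common term and in neither genotype (orange) and the 201 called also in a genotype (blue) all lie where both changes have the same sign, and several blue rows lie far to the right of the dashed line. The common term favours rows with the same sign in both genotypes, so their position tests nothing.

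Among the 6 rising rows of smallest p, 2 lay opposite no gene: Aph1b, which encodes a subunit of gamma-secretase, and Col11a2, a chain of the fibril-forming collagen XI. The matrix phosphatase gene Phospho1, which releases phosphate for mineral, lies, with Zfp652 and Gngt2, opposite the Abi3 row, which also rose in both genotypes; the fragments cannot be assigned to one of these genes. Promoters of these 3 genes (Aph1b, Col11a2 and Phospho1) are shown because the Aph1b and Col11a2 rows rose, as did the Abi3 row opposite Phospho1. Each is the 250 bases before the RefSeq start on GRCm38.p6, 5′ to 3′. Capitals mark TATAAA, searched on the given strand, and GGGCGG on both strands (written CCGCCC where it lies on the other strand); TGTGGT was searched on both strands and is in none of these windows.
Aph1b, chr9:66795424-66795673, minus strand: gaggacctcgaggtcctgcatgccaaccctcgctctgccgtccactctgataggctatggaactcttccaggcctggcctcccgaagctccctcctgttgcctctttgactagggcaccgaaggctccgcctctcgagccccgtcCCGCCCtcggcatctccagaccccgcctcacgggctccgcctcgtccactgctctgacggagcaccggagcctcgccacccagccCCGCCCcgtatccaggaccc
Col11a2, chr17:34038888-34039137, plus strand: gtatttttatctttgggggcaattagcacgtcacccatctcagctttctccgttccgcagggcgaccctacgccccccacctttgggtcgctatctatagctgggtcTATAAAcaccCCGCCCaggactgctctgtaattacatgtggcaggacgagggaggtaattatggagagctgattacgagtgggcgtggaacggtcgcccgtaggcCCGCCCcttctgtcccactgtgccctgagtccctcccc
Phospho1, chr11:95824250-95824499, plus strand: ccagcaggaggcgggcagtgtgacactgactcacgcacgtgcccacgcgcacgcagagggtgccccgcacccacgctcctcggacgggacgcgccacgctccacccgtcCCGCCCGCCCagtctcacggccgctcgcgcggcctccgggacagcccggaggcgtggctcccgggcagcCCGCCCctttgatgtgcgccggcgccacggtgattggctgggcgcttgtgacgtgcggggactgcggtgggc
GGGCGG stood 2 times in the Aph1b, 2 times in the Col11a2 and 3 times in the Phospho1 window, with overlapping copies in the last, and 32.7% of 32851 promoter windows of this length hold it. TATAAA stood once, before Col11a2, and 7.59% of the windows hold it. TGTGGT is in 14% of all windows. These matches describe letters only.

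Aph1b (chr9:66775202-66795490 in GRCm38) stood at 1.18, 6.76 and 12.8 CPM in non-loaded limbs and at 39.5, 143 and 374 in loaded limbs. Groups did not overlap, and each of the 8 mice was higher on the loaded side. Its common log2 change was 4.52 (SE 0.28, adjusted p = 1.1e-08), with 4.76 in Ctrl and 4.16 in NT3. Ddn, named for the podocyte and neuronal protein dendrin, went from 14.1, 29 and 72.4 to 128, 297 and 547 CPM. Again no loaded limb overlapped a non-loaded one, and the log2 change was 3.21 (SE 0.14, adjusted p = 2.2e-22), 3.36 in Ctrl and 2.98 in NT3. Prkag1, named for a subunit of the energy sensor AMPK, rose by 2.84 (SE 0.19, adjusted p = 1.0e-14) from 4.27, 11 and 19.4 to 29.4, 90.6 and 175 CPM, also without overlap. Both rows lie on the minus strand of chromosome 15 opposite B130046B21Rik, whose own row had a log2 change of -0.10 (adjusted p = 0.623). The ends of Ddn and Prkag1 nearest to Wnt1 lie 9.94 and 19 kb beyond the end of Wnt1, a bone-forming Wnt ligand gene on the plus strand. The Wnt1 row held 0 to 2 fragments in non-loaded and 0 to 13 in loaded limbs and was not tested.

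Col11a2 (chr17:34039437-34066685) rose from 9.03, 27.6 and 47.0 to 56.1, 75.6 and 119.7 CPM. Its groups did not overlap, and the change was about the same in Ctrl (1.54) and NT3 (1.68), with a common value of 1.60 (SE 0.17, adjusted p = 1.2e-08). The next row on the chromosome, H2-Pb, named for a class II antigen gene and chosen here after its values were seen, rose by 2.96 (SE 0.31, adjusted p = 2.4e-06) from 1.18, 5.67 and 20.3 to 26.3, 64.5 and 106 CPM. Opposite Sp6, a zinc finger factor of tooth and limb development, Gm11532 rose by 0.95 (SE 0.10, adjusted p = 2.7e-09) from 241, 409 and 542 to 494, 847 and 1209 CPM. These 5 leading rising rows stayed called without any 1 of the 8 mice.

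**Figure D2:**
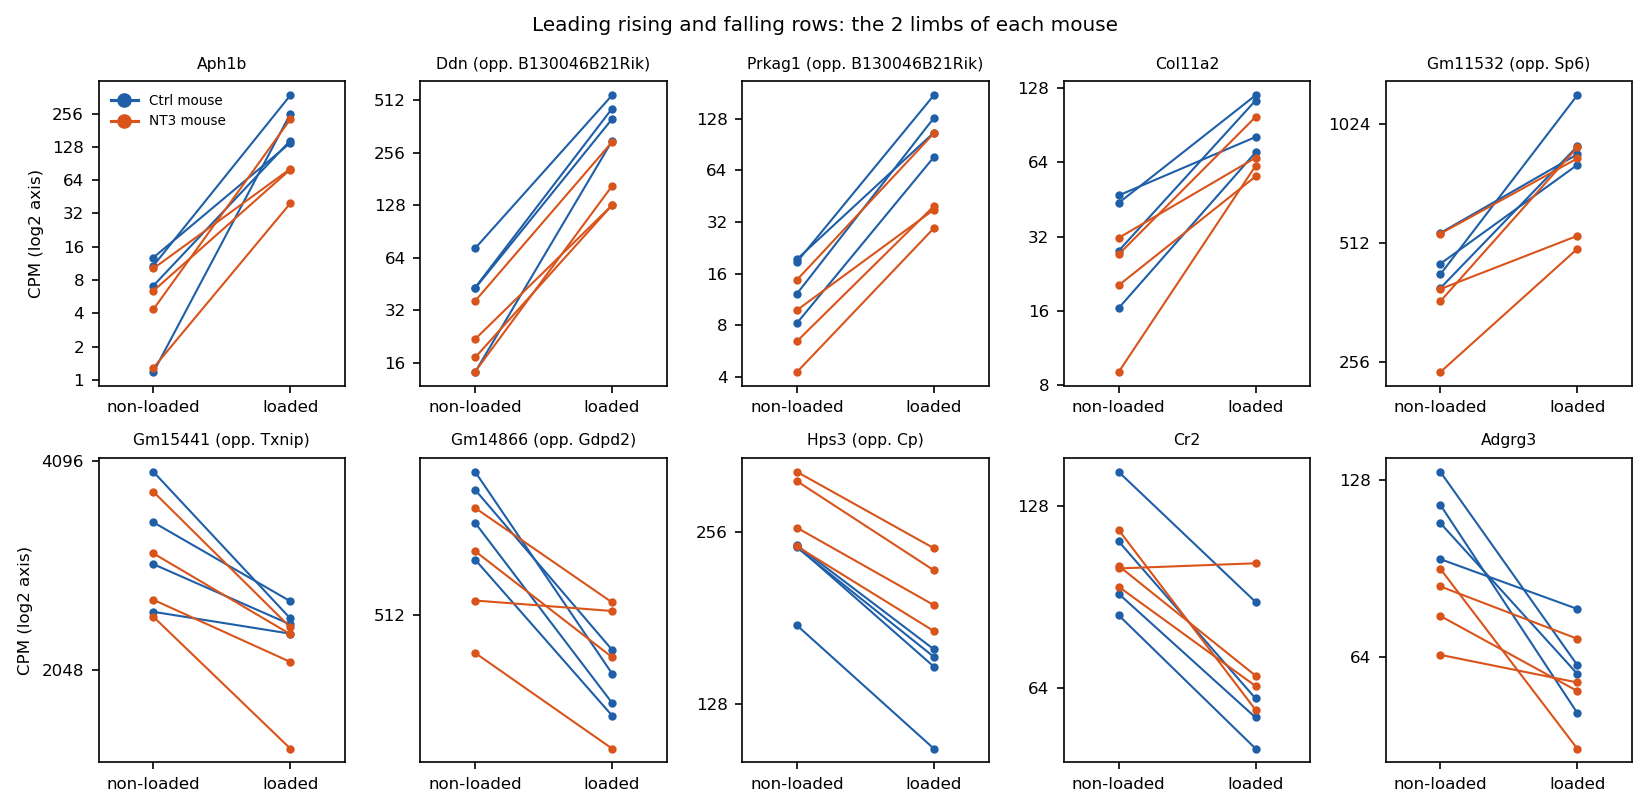
CPM on log2 axes in the non-loaded and loaded limb of each mouse (lines; blue Ctrl, orange NT3) for 5 rising and 5 falling rows among those with the smallest p; opp. gives the gene on the other strand. The Aph1b, Ddn, Prkag1 and Col11a2 panels show no overlap between limbs, while Cr2 has 1 NT3 mouse that did not fall.

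The leading falling rows changed by less. Opposite Gdpd2, a glycerophosphodiesterase gene expressed in osteoblasts, Gm14866 (chrX:100736983-100740929) fell from 456, 653 and 797 to 339.6, 439 and 533 CPM. It was lower on the loaded side in all 8 mice, with a log2 change of -0.56 (SE 0.09, adjusted p = 3.8e-05), -0.78 in Ctrl and -0.34 in NT3. Hps3, opposite the copper-carrying ferroxidase gene Cp, fell in all 8 mice by 0.57 (SE 0.09, adjusted p = 4.9e-05), from 176, 243 and 327 to 107, 166 and 240.3 CPM. Gm15441, opposite Txnip, an inhibitor of glucose uptake and of thioredoxin, also fell in all 8, from 2442, 2962 and 3954 to 1576, 2333 and 2572 CPM. Its change was -0.43 (SE 0.08, adjusted p = 5.5e-04), with -0.37 in Ctrl and -0.49 in NT3. The ranges of loaded and non-loaded limbs overlapped for each of these 3 rows, and the spread between mice was wider than the loading change.

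A further 2 leading falling rows lie opposite no gene and carry names of blood-cell surface proteins. Cr2, named for complement receptor 2 of B cells and follicular dendritic cells, fell by 0.63 (SE 0.13, adjusted p = 0.0017), from 84.5, 101 and 146 to 50.8, 63.0 and 103 CPM. Adgrg3, named for an adhesion receptor of granulocytes, fell in all 8 mice by 0.67 (SE 0.14, adjusted p = 0.00208), from 64.5, 92.1 and 132 to 44.7, 58.9 and 77.2 CPM. These 5 leading falling rows stayed called without any 1 of the 8 mice.

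Of the 206 rising rows, 41 (0.570% of the rows tested) were called in neither genotype alone, and of the 73 falling rows 37 did so (0.514%). The median log2 change of the 41 was 0.68, a 1.6-fold rise, with 0.57 in Ctrl and 0.71 in NT3. For the 37 it was -0.48, a 1.4-fold fall, with -0.45 in Ctrl and -0.47 in NT3. In 24 of the 41 all 8 mice were higher on the loaded side and in 15 more 7 were, and in 12 of the 37 all 8 were lower and in 22 more 7 were. Limb groups of 5 of the 41 did not overlap and of 0 of the 37; over all tested rows 0.292% did not overlap with loaded limbs higher and 0.0278% with loaded limbs lower. Over all tested rows, 2.57% were higher and 1.17% lower in the loaded limb of 8 of 8 mice. The rule that chose these rows required a called common change, so these counts describe them and test nothing. Without Ctrl mouse 1 or NT3 mouse 4 the rising count was 22 or 26, and without Ctrl mouse 1, Ctrl mouse 4 or NT3 mouse 4 the falling count was 14, 20 or 18. Every one of the 78 rows that was tested kept its direction in the 8 fits that left out a mouse. Rows chosen for a called change over all 8 mice can hardly reverse in these fits, so this tests nothing. Of the 15 rising and 14 falling rows described next, among the first by p with a mean of at least 20 fragments, 6 and 1 stayed called in all 8 of these fits.

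Among the added rising rows, those that stayed called without any 1 mouse were Gm11252, Padi2, Gm26811, BC048671, Kcnab1 and Yipf2. Gm11252, a processed pseudogene on chromosome 4 (chr4:76393154-76394092), went from 52.9, 94.3 and 116 to 118, 135 and 149 CPM. Loaded and non-loaded limbs did not overlap, and the log2 change of 0.59 (SE 0.12, adjusted p = 0.00113) was split as 0.53 in Ctrl and 0.66 in NT3. Because pseudogene reads can be shared with a parent gene, this row is uncertain. Padi2, named for an enzyme that turns arginine to citrulline in proteins, rose by 1.16 (SE 0.24, adjusted p = 0.00151), from 4.27, 14.4 and 25.4 to 26.6, 32.6 and 38.8 CPM without overlap. Its change was 1.00 in Ctrl and 1.33 in NT3. Opposite Plxna1, a semaphorin receptor gene, Gm26811 rose in all 8 mice by 0.42 (SE 0.09, adjusted p = 0.00245), from 232, 289 and 331 to 294, 363 and 512 CPM.

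BC048671 was higher in 7 of 8 loaded limbs, at 20.3, 38.0 and 46.7 against 29, 66.2 and 101 CPM (log2 0.77, SE 0.18, adjusted p = 0.00519). Kcnab1, named for a potassium channel beta subunit and lying opposite A330015K06Rik, rose in all 8 mice by 0.47 (SE 0.11, adjusted p = 0.00533), from 101, 119.6 and 140.4 to 131, 166 and 202 CPM. Yipf2, named for a Golgi membrane protein and opposite the arginine methyltransferase gene Carm1 and Timm29, rose by 0.38 (SE 0.09, adjusted p = 0.00836) in 7 of 8 mice. In these rows Ctrl and NT3 changes were close, 0.78 and 0.77 for BC048671, 0.45 and 0.50 for Kcnab1 and 0.40 and 0.36 for Yipf2. The rule that chose them favours close changes, so this is a description only.

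The other 9 named rising rows lost their call in at least 1 of the fits without a mouse. They included the imprinted noncoding RNA row Kcnq1ot1, which lies opposite Kcnq1 and several short Gm rows (0.43, adjusted p = 0.00626; not called without Ctrl mouse 1). Mllt10, opposite the chaperone gene Dnajc1, was the last of the 15 whose limb groups did not overlap, with 114, 144 and 171 against 172, 183 and 207 CPM (0.37, adjusted p = 0.0255). Cxadr, opposite the antiproliferative gene Btg3, rose by 0.44 (adjusted p = 0.0152), Gm17103, opposite Tmem39a, by 0.45 (adjusted p = 0.0114) and A130051J06Rik, opposite the scramblase gene Ano6, by 0.46 (adjusted p = 0.0147). Gm43915, opposite the cytoskeletal oxidase gene Mical3, rose by 0.35 (adjusted p = 0.0159), and G430095P16Rik, opposite the transcription factor gene Nfix, by 0.40 (adjusted p = 0.0282). The short row Gm23935 rose by 0.64 (adjusted p = 0.0144) and RP24-225H21.4 by 0.43 (adjusted p = 0.0294). Both genotypes gave changes within a narrow band in these rows, from 0.40 to 0.61 in Ctrl and from 0.29 to 0.67 in NT3. The rule that chose the rows left little room for a difference, so this band tests nothing.

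Of the other added rising rows, some were chosen after their values were seen. Aebp1, named for a collagen-binding matrix protein, rose in all 8 mice from 6.47, 12.1 and 27.0 to 13.2, 25.9 and 43.5 CPM (0.89, SE 0.25, adjusted p = 0.0287). Opn1sw, opposite the secretory-pathway calcium binder gene Calu, rose by 0.79 (adjusted p = 0.034) and Tk1, named for thymidine kinase and opposite Afmid, by 0.30 (adjusted p = 0.0393). Without single mice, these 3 stayed called in 3, 4 and 2 of the 8 fits.

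Of the falling rows the common term added, Cd163 stayed called in all 8 fits without a mouse. Its product is the scavenger receptor by which macrophages take up haemoglobin, and the row lies opposite no gene (chr6:124304656-124330527). It went from 277, 309 and 371 to 216, 240.3 and 282 CPM, lower on the loaded side in 8 of 8 mice (-0.35, SE 0.09, adjusted p = 0.0112), with -0.32 in Ctrl and -0.38 in NT3. Cd163 was the 1 row called among 4 tested macrophage rows by name, and the 1 row opposite such a gene, Hmgxb3 opposite Csf1r, had -0.05 (adjusted p = 0.954). Rows on the plus strand opposite the stress-response gene Ndrg1 fell together on chromosome 15. Gm17035 went from 1096, 2432 and 2909 to 1094, 1932 and 2598 CPM (-0.33, SE 0.08, adjusted p = 0.0121) and Gm2895 from 193, 431 and 539.6 to 164, 318 and 475 (-0.32, SE 0.09, adjusted p = 0.0239). Mice differed widely in both, and Gm17035 was lower on the loaded side in 8 mice and Gm2895 in 7. The fall of Gm17035 in NT3 mouse 4 was only from 1096 to 1094 CPM.

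Several added falling rows lie opposite genes of growth control and metabolism. Gm9920, opposite Deptor, an inhibitor of the growth kinase mTOR, fell in 8 of 8 mice by 0.67 (SE 0.17, adjusted p = 0.0147). It went from 36.1, 58.9 and 67.0 to 21, 35.0 and 58.3 CPM, and in Ctrl mouse 2 only from 58.4 to 58.3. Gm10197, opposite the Myc antagonist gene Mxi1, fell by 0.37 (adjusted p = 0.0215) and Gm37035, opposite the ADP receptor gene P2ry1, by 0.42 (adjusted p = 0.00783). The row opposite Gpd1, a glycerol phosphate dehydrogenase gene, was Gm16537, which fell by 0.61 (adjusted p = 0.0233) in 6 of 8 mice. Gm11697, opposite the transporter gene Abca8b, fell by 0.77 (adjusted p = 0.0233), with -0.49 in Ctrl and -1.14 in NT3. Gm44002, opposite the deacetylase gene Hdac11, fell by 0.54 (adjusted p = 0.0233) in all 8 mice. No gene list was drawn up for growth control or metabolism, so no theme is claimed for these rows.

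The most abundant added falling row was Syn3, opposite Timp3, an inhibitor of matrix metalloproteinases, which went from 3034, 3560.1 and 4094 to 2319.7, 2969.6 and 3368 CPM (-0.30, SE 0.08, adjusted p = 0.0227). It fell in 7 of 8 mice, and the groups overlapped by part of their range. Ppt1, named for a lysosomal thioesterase and opposite the actin regulator gene Cap1, fell in all 8 mice by 0.31 (adjusted p = 0.0238). Lrrc41, opposite the recombination gene Rad54l, fell by 0.48 (adjusted p = 0.0121) and Cacnb4, opposite A430018G15Rik, by 0.48 (adjusted p = 0.0224). Gm28417, opposite the phosphatase gene Ptpn18, fell by 0.41 (adjusted p = 0.0216) in 7 of 8 mice.

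**Figure D3:**
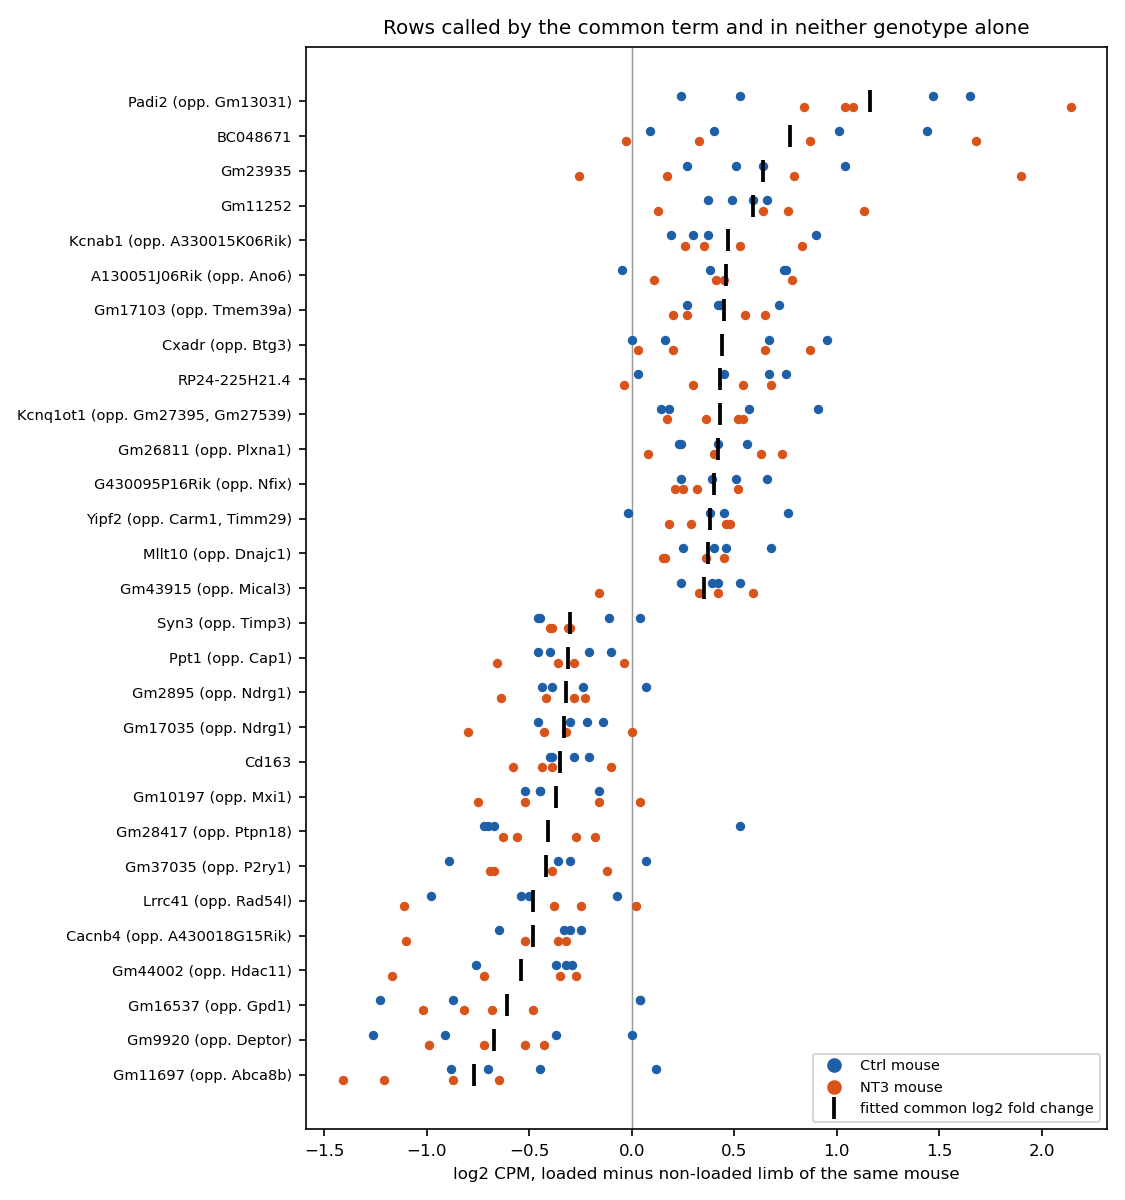
Log2 change between the limbs of each mouse (points; blue Ctrl, orange NT3) and fitted common change (black bars) for 15 rising and 14 falling rows called by the common term and in neither genotype alone. Blue and orange points mix, which the rule that chose these rows favours. Most points of a line lie on the same side of 0, though many lines have a mouse at or across 0. The point of Gm28417 at 0.53 is Ctrl mouse 4 and that of Gm23935 at 1.90 is an NT3 mouse.

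Matrix genes were read from lists by row name and by opposite gene, beside a median of -0.02 over all 7192 rows. Of all rows 3.88% were called. Rows opposite a gene made up 54.0% of the tested and 62.6% of the rising rows. Of 9 tested fibrillar collagen rows 7 rose and 0 fell, with a median of 1.22, 1.54 in Ctrl and 0.72 in NT3; none was among the added rows, since each was called in a genotype alone. Col1a1, the main chain of bone collagen, went from 39.7, 87.9 and 198 to 205, 309 and 486 CPM. Its limb groups did not overlap, and the log2 change was 1.63 (SE 0.20, adjusted p = 4.9e-04), 2.06 in Ctrl and 1.19 in NT3. Col5a2 rose by 1.57 (SE 0.24, adjusted p = 2.0e-05) and Col11a1 by 1.49 (SE 0.24, adjusted p = 3.8e-05), the first in 8 mice and the second in 7. Both rows opposite Col5a1, 2810430I11Rik and Gm13372, rose, by 1.50 (adjusted p = 0.00367) and 1.43 (adjusted p = 0.014). Gm13372 was not called without Ctrl mouse 1, Ctrl mouse 3 or Ctrl mouse 4, with adjusted p values up to 0.0519.

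Of 10 other collagen rows 2 rose, Col6a2 (1.39, adjusted p = 0.00106) and Col12a1 (1.11, adjusted p = 0.0184), which form microfibrils and link fibrils; Col12a1 kept its call in 4 of the 8 fits without a mouse. Opposite the basement membrane gene Col4a2, Gm15419 rose by 0.73 (adjusted p = 0.00392), with 1.17 in Ctrl and 0.25 in NT3. Collagen-processing genes gave 0 called of 12 rows by name and 4 rising of 7 by opposite gene. These 4 were Nt5c3b opposite the collagen chaperone gene Fkbp10 (1.17, adjusted p = 1.4e-04), Gm38391 opposite the lysyl hydroxylase gene Plod2 (0.80, adjusted p = 3.0e-06), Gm17529 opposite the COPII coat gene Sec23a (0.72, adjusted p = 2.1e-05) and Snx22 opposite the prolyl isomerase gene Ppib (0.32, adjusted p = 0.0273). Nt5c3b moved from 249, 277 and 360.4 to 399.6, 653 and 972 CPM without overlap. Snx22 was called in 3 of the 8 fits without a mouse. Of 7 rows opposite genes of the endoplasmic reticulum and secretion 2 rose, Gm44170 opposite the translocon gene Sec61a1 (0.62, adjusted p = 1.0e-04) and Gm37756 opposite the coatomer gene Copa (0.29, adjusted p = 0.0447; called in 3 of the 8 fits without a mouse), and 0 of 10 were called by name.

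Of 5 rows opposite genes of mineral and phosphate handling 3 rose, with a list median of 1.78. Abi3, opposite Phospho1 and also Zfp652 and Gngt2, went from 531, 793 and 1416 to 1760.0, 3277 and 4930.4 CPM. No loaded limb overlapped a non-loaded one, and the log2 change was 1.92 (SE 0.20, adjusted p = 0.0012), 2.44 in Ctrl and 1.39 in NT3. Prmt7, opposite Gm26786 and the sphingomyelinase gene Smpd3, needed for normal mineralization, rose by 2.24 (SE 0.17, adjusted p = 2.4e-06) from 52.9, 116 and 232 to 251, 634 and 745 CPM, also without overlap. In 1700051A21Rik, opposite the citrate transporter gene Slc13a5, the rise was 1.78 (SE 0.20, adjusted p = 8.0e-06) in 8 of 8 mice. By row name, 0 of 7 rows of this list were called; Ank, which exports pyrophosphate, was the most abundant of them, at -0.05 (adjusted p = 0.919).

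Of 12 rows named for noncollagenous matrix proteins 2 rose. Sparc, a collagen-binding glycoprotein, went from 9.34, 30.5 and 42.9 to 27.7, 75.5 and 122 CPM (1.22, SE 0.19, adjusted p = 3.9e-05) and Dmp1, an acidic protein of osteocytes, from 49.0, 74.2 and 111 to 71.5, 129 and 159 (0.66, SE 0.12, adjusted p = 3.5e-04). Dmp1 was higher in the loaded limb of 8 mice with similar changes in Ctrl (0.72) and NT3 (0.59), and Sparc in 7, with 1.85 and 0.64. Ibsp, bone sialoprotein, had 68.9, 124 and 161 against 79.9, 142 and 280.2 CPM (0.45, adjusted p = 0.217), with 0.99 in Ctrl and -0.12 in NT3. Opposite the fibronectin gene Fn1, Apol7d rose by 0.63 (SE 0.10, adjusted p = 2.1e-05), 1 called of 4 such rows. Of 8 osteocyte rows 2 rose, Dmp1 and the gap junction gene Gja1 (1.26, adjusted p = 0.0299), which was called in 3 of the 8 fits without a mouse. Sost, the Wnt inhibitor sclerostin, stood at 9.60, 29.4 and 50.7 against 4.31, 17.2 and 44.5 CPM and did not pass (-0.60, SE 0.26, adjusted p = 0.242), being higher on the loaded side in 2 of 8 mice. The 1 row opposite an osteocyte gene, A430027H14Rik opposite the channel gene Kcnk2, was higher in 8 of 8 loaded limbs and did not pass (1.12, adjusted p = 0.0633).

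Signalling lists were read next, beside the 3.88% called over all 7192 tested rows. Each held few tested rows, so no list is read as above or below that share. Of the Wnt pathway, 0 of 8 rows by name and 0 of 8 by opposite gene were called by edgeR, with medians of 0.00 and 0.31; the most abundant, Ulk4 opposite the beta-catenin gene Ctnnb1, had 0.02 (adjusted p = 0.966). Rows of the TGF-beta and BMP list were called in 0 of 11 by name and 2 of 8 by opposite gene. These were Gm37804 opposite Tgfb3 (0.61, adjusted p = 0.00445) and Gm26903 opposite Bmp5 and Hmgcll1 (0.35, adjusted p = 0.0349), with changes of 1.02 and 0.67 in Ctrl but 0.13 and 0.02 in NT3. Gm26903 was not called without Ctrl mouse 1, Ctrl mouse 2, Ctrl mouse 3 or Ctrl mouse 4. Polr2b, opposite Igfbp7, rose by 0.40 (adjusted p = 0.00514), 1 of 5 rows opposite IGF and FGF genes with 0 of 8 called by name, and Oraov1, opposite the cyclin D1 gene Ccnd1, by 0.60 (adjusted p = 3.8e-05), 1 of 2 opposite proliferation genes with 0 of 4 by name. Early load-response genes gave 0 of 4 by name and 0 of 2 by opposite gene, and transcription factors of osteoblasts 0 of 9 by name, with Runx2 at -0.18 (adjusted p = 0.567). Among mechanosensor genes 1 of 6 rows by name, Gja1, and 0 of 5 by opposite gene were called. Gm43109, opposite the adhesion gene Vcam1, fell by 0.40 (adjusted p = 0.00693), 1 of 5 rows opposite NF-kB genes, and 0 of 5 were called by name. Gm43109 was not called without Ctrl mouse 1 or Ctrl mouse 3, with adjusted p values up to 0.0631. Sphk2, opposite the clock output gene Dbp and Rpl18, fell by 0.41 (adjusted p = 0.00519), 1 of 6 rows opposite clock genes, with 0 of 6 called by name. Of the glucocorticoid response list, Gm15441 opposite Txnip was the 1 row by opposite gene and 0 of 4 were called by name.

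**Figure D4:**
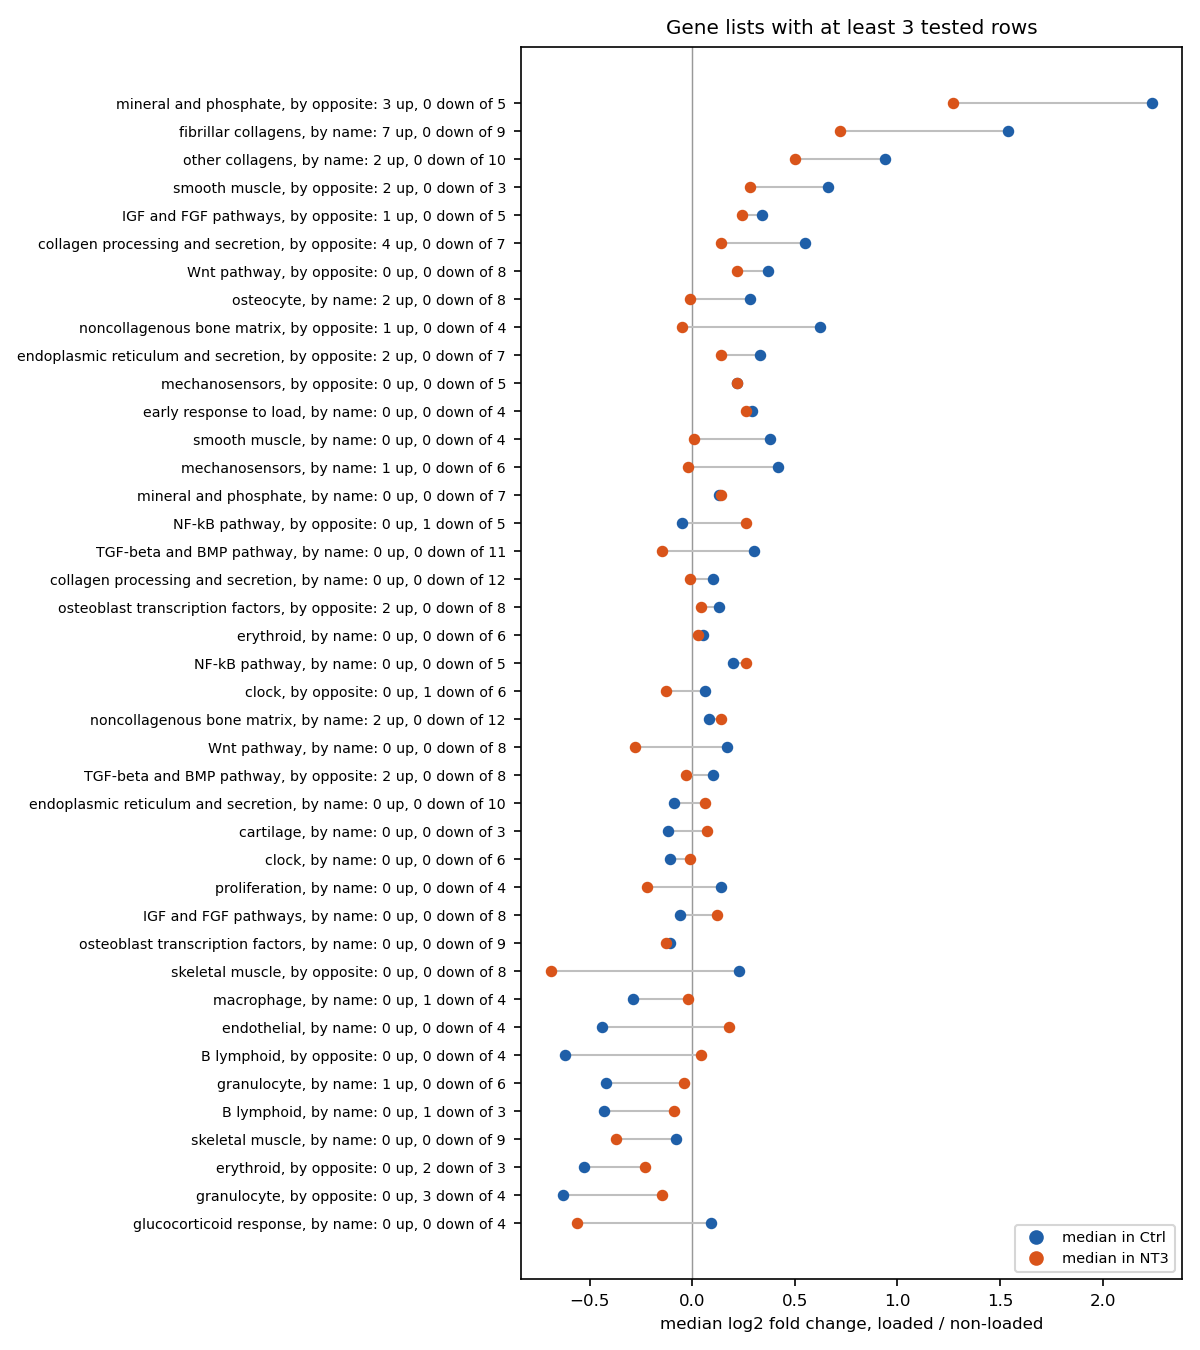
Median log2 change in Ctrl (blue) and NT3 (orange) of each list with at least 3 tested rows, by row name or by the gene on the other strand, with the rows called rising and falling by the common term in the labels. Both medians are well above 0 for mineral genes by opposite gene and for collagens by name, and both are below 0 for granulocyte and erythroid genes by opposite gene. For erythroid genes by name they are 0.05 in Ctrl and 0.03 in NT3.

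Lists of other cell types were read beside the falling rows, which were 1.02% of all rows tested. Rows opposite a gene made up 54.0% of the tested and 76.7% of the falling rows. These lists too held few tested rows, so none is read as above or below that share. By opposite gene, 3 of 4 granulocyte rows fell: Gm11505 opposite the myeloperoxidase gene Mpo, Tctn1 opposite the proton channel gene Hvcn1 and Gm15481, and Kcnh7 opposite Gca. Gm11505 went from 2634, 4794 and 7917 to 1743, 3013 and 3936 CPM (-0.64, SE 0.12, adjusted p = 0.00277), lower in 7 of 8 loaded limbs. Tctn1 fell by 0.35 (adjusted p = 0.00914) but was not called without Ctrl mouse 1 or Ctrl mouse 2, with adjusted p values up to 0.0735. Kcnh7 fell by 0.45 (adjusted p = 0.0164); it had -0.79 in Ctrl and -0.09 in NT3 and lost its call without Ctrl mouse 1, Ctrl mouse 2, Ctrl mouse 3 or Ctrl mouse 4. By row name, 1 of 6 granulocyte rows was called and it rose: Mmp8, a collagenase first known from neutrophils, at 28.4, 46.3 and 69.2 against 36.5, 105 and 165 CPM (1.02, SE 0.16, adjusted p = 2.9e-05). Of 3 rows opposite erythroid genes 2 fell, Gm15816 opposite the red-cell ankyrin gene Ank1 (-0.40, adjusted p = 0.00549) and Hcn3 opposite the pyruvate kinase gene Pklr (-0.64, adjusted p = 0.0349), the latter called in 3 of the 8 fits without a mouse; 0 of 6 were called by name. Alas2, opposite Apex2 and Mir3620, was the most abundant erythroid row by name. It had 0.28 (adjusted p = 0.254), with 0.54 in Ctrl (adjusted p = 0.0424) and 0.01 in NT3. Cr2 was the 1 row called of 3 tested B lymphoid rows by name, and 0 of 4 were called by opposite gene.

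Summed over all 4 rows opposite granulocyte genes, levels per 1000000 counted fragments were 5229 to 9928 (median 7099) in non-loaded and 3081 to 6765 (median 5231) in loaded limbs, lower on the loaded side in 8 of 8 mice. The 21 granulocyte rows by name summed to 353 to 490.0 and 355 to 496, lower in 4 of 8 mice. Erythroid sums by opposite gene were 1551 to 3853 and 1346 to 3033, lower in 6 of 8. By name they were 231 to 349 and 247 to 334, lower in 4 of 8. Macrophage sums by name were 429 to 628 and 367 to 480.0, lower in 7 of 8. Only Mir3620 among these rows stood at 0 in every library. In bulk bone, fewer cells of a type and less RNA per cell cannot be told apart. The part that marrow cells left after spinning play in the falling rows was not tested.

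A further 5 falling rows were chosen after their values were seen, for genes opposite them that are known from blood cells; they form no list fixed or tested, so no theme is claimed for them. Gm26577, opposite Myb, a transcription factor of blood progenitors, fell in 8 of 8 mice from 305, 380.3 and 563 to 203, 299 and 369.9 CPM (-0.42, SE 0.10, adjusted p = 0.00374). Gm15629, opposite the leukocyte actin bundler gene Lcp1, fell by 0.38 (adjusted p = 0.00999), but was not called without Ctrl mouse 1. Gm20531 opposite the phosphatase gene Ptpn6 (-0.30, adjusted p = 0.0408), Unc5a opposite the hexokinase gene Hk3 (-0.40, adjusted p = 0.044) and Trpt1 opposite the kindlin gene Fermt3 (-0.34, adjusted p = 0.0492) were called in neither genotype alone. Each of these last 3 stayed called in 2 of the 8 fits without a mouse.

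Skeletal muscle rows by opposite gene spread widely, with sums of 1953 to 18191 in non-loaded and 1296 to 15155 in loaded limbs, lower on the loaded side in 6 of 8 mice. None of 8 such rows and none of 9 by name were called; 0.44 was the fall of Rabep2, opposite the muscle calcium pump gene Atp2a1 (SE 0.38, adjusted p = 0.681). Smooth muscle rows opposite Smtn, a contractile protein gene, rose, Gm11946 by 0.39 (adjusted p = 0.00427) and Gm11947 by 0.98 (adjusted p = 0.0265), 2 of 3 by opposite gene against 0 of 4 by name. Gm11947 was one of the added rows, held a mean of 14.6 fragments and was called in 5 of the 8 fits without a mouse. No row was called among 1 osteoclast, 2 megakaryocyte, 4 endothelial, 3 cartilage, 1 tendon and 2 adipocyte rows tested by name.

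**Figure D5:**
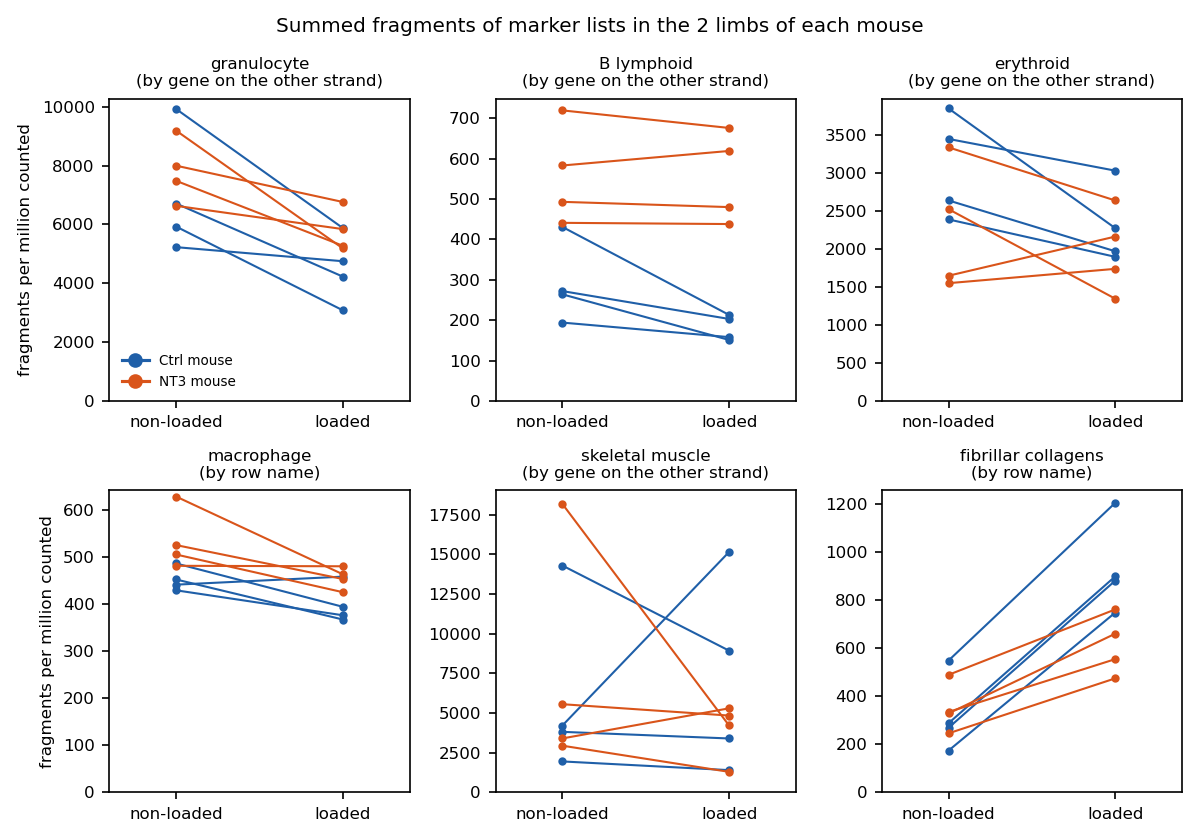
Summed fragments per 1000000 counted of marker lists (y axes start at 0) in the non-loaded and loaded limb of each mouse (lines; blue Ctrl, orange NT3). Granulocyte sums by opposite gene fall and fibrillar collagen sums rise in 8 of 8 mice, while skeletal muscle sums move in both directions. Granulocyte and erythroid sums by name, which are not drawn, were each lower in 4 of 8 mice.

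Some called rows lay side by side. Of 273 called rows that could be placed on GRCm38, 51 (18.7%) lay within 50 kb of another one, in 24 clusters, of which 19 held rising rows, 4 falling rows and 1 both. The same share was not worked out for other tested rows, so these counts describe the called rows only. Neighbouring rows of the same stretch can share transcripts, so they are not independent. Rising clusters included Ddn with Prkag1, Col3a1 with Col5a2, Col11a2 with H2-Pb and the 3 rows at Col5a1. Gm27483, a short row opposite the imprinted growth-restraining RNA gene H19, chosen after its values were seen, rose in 8 of 8 mice from 1.09, 4.19 and 9.34 to 5.27, 21.7 and 47.7 CPM. Its change was 2.39 (SE 0.32, adjusted p = 1.7e-06), with 2.46 in Ctrl and 2.26 in NT3. On chromosome 15, Phf20l1 (-0.57, adjusted p = 0.0265), Tg (-0.49, adjusted p = 0.0486) and Gm17140, opposite Tg (-0.51, adjusted p = 0.00267), fell over one stretch, and these too were named after their values were seen. Tg, the thyroglobulin gene, went from 57.7, 127 and 258 to 52.7, 72.0 and 175 CPM, was higher on the loaded side in 3 of 8 mice and was called in 3 of the 8 fits without a mouse. Phf20l1 was called in 4 of these fits and Gm17140 in 8.

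The calls made within 1 genotype were also read in the other. Of 221 rows rising in Ctrl (3.07% of those tested), 199 (90.0%) had a positive change in NT3, 104 of them at an unadjusted p under 0.05, and the median was 1.02 in Ctrl and 0.40 in NT3. Of 72 falling in Ctrl (1.00%), 58 (80.6%) had a negative change in NT3, 16 at an unadjusted p under 0.05, with medians of -0.66 and -0.17. These rows were chosen on their Ctrl values, so the medians are a description only. All 24 rows rising (0.334%) and all 6 falling (0.0834%) in NT3 had the same sign in Ctrl, and all 30 were called by the common term. The common term did not call 57 of the rows rising and 41 of those falling in Ctrl.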

How the data were processed

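RNA-seq of tibial cortical bone (total RNA depleted of ribosomal RNA, random primers, single-end 75 bases) was deposited as 1 count file per library. Per the submitters' processing notes, the authors used STAR 2.4.2a for alignment (mm10), featureCounts 1.4.6 (Subread) for counting and DESeq2; the deposited values are raw fragment counts per gene. Annotation release and strand setting are not given in the sources used here. Rows were placed on GENCODE vM21 (GRCm38), where 45250 of 47517 matched by symbol and 611 by an older one. Rows whose exons overlapped a gene of the other strand by at least 20 bases were called opposite it.

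Rows were filtered with filterByExpr (minimum count 10), scaled by TMM and tested with edgeR 4.0.16 robust quasi-likelihood F tests in R 4.3.3, with mouse as block. One fit had a common loading term and a second a term per genotype. Benjamini-Hochberg adjusted p values run over all 7192 rows. All log2 values are edgeR fold changes of loaded over non-loaded limbs, and SE is the change divided by the root of F. A limb counted as higher or lower by its CPM, however small the difference. DESeq2 1.42.0, no block, other filters and scalings, a fit without robust estimation and leaving out each mouse were alternatives.

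The design text pairs the limbs of each mouse; deviations from group means correlated at 0.045 to 0.178 within mice, and for Ctrl mouse 4 another mouse gave 0.157 against 0.045. The 4 mice per genotype are separate animals. In simulated data (7192 rows drawn, 6945 tested), the common term recovered 76.5% of 2-fold and 100% of 4-fold changes and called 8 unchanged rows. The Ctrl and NT3 terms recovered 50% and 54.1% of 2-fold changes. Changes under 2-fold were not simulated, while the median added rising and falling rows changed 1.6-fold and 1.4-fold.

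Members and the 29 gene lists were chosen with earlier results of these data known. Named rows were the 6 of smallest p in each direction, the 15 of smallest p in each direction called in neither genotype alone (both with a mean of at least 20 fragments), up to 4 called rows of each list or its most abundant row, and Col1a1, Dmp1, Sost, Ibsp, Sparc and Map3k14; others are marked. A few rows that met this rule are not reported here. Most abundant rows of lists without a call are printed for the lists of most interest to bone. Promoter sequences are from RefSeq (GRCm38.p6).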

Additional observations from a re-analysis of the deposited data

Results flagged for a closer look

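For 6 of 101 rows, the limb-to-limb change of 1 mouse stood apart from the other 7 by Dixon's criterion; chance flags about 1 in 20 such groups. Col11a1 changed by -0.52 in NT3 mouse 2 against 0.97 to 2.15 in the others. Cr2 changed by 0.03 in NT3 mouse 1 against -0.97 to -0.53. Gm15629 changed by -0.94 in Ctrl mouse 1 against -0.45 to -0.04. Gm28417 changed by 0.53 in Ctrl mouse 4 against -0.72 to -0.18. Gm43915 changed by -0.16 in NT3 mouse 2 against 0.24 to 0.59. Hcn3 changed by 0.87 in NT3 mouse 2 against -1.43 to -0.36. These are log2 differences between the limbs of a mouse, and 3 of the 6 came from NT3 mouse 2.

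For 6 named rows the loading effect differed between genotypes in the edgeR test of the difference (NT3 minus Ctrl), and it was lower in NT3 in all 6. The difference was -1.10 for 2810430I11Rik (2.07 in Ctrl, 0.96 in NT3, adjusted p = 6.1e-04), -1.06 for Abi3 (adjusted p = 1.6e-04) and -1.07 for Gm13372 (adjusted p = 0.00213). It was -1.10 for Ibsp (0.99 and -0.12, adjusted p = 0.0115), -0.92 for Nt5c3b (adjusted p = 0.00213) and -0.88 for Prmt7 (adjusted p = 0.0459). A common term averages 2 unlike changes in these rows. Of the 78 rows called in neither genotype alone, 0 rising and 1 falling had an unadjusted p under 0.05 for the difference. Over all 7192 tested rows 472 had one. The rule that chose the 78 required a called common change with 1 sign in both genotypes. It left little room for a difference, so this count tests nothing.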

How the results depend on the processing

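No alternative turned the direction of a named called row, but these rows were chosen for a called change in the same libraries. Without the replicate block for mouse, falling calls went from 73 to 27, falling rows called in neither genotype from 37 to 17, Ctrl calls from 293 to 171, NT3 calls from 30 to 5 and differences from 10 to 0; with the DESeq2 Wald test these were 34, 22, 169 and 19, with differences again at 10. NT3 calls were 18 without robust estimation, and differences 17 without the filter. Rising calls stayed within 1.5 times under these alternatives, at 175 without the block and 167 with DESeq2. Leaving out 1 mouse gave 143 to 208 rising and 31 to 96 falling calls, 22 to 47 and 14 to 53 of those called in neither genotype, 163 to 325 Ctrl calls, 7 to 14 differences and 17 to 44 NT3 calls. Of 279 called rows, 199 were also called without the block and 197 with DESeq2. Of the 78 called in neither genotype, 38 and 31 were, and 21 without Ctrl mouse 1. Libraries of about 1000000 fragments limit these results: the median tested row held 25.2 fragments per library and the median called row 88.9.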

Other observations

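Rows too shallow for the 20-fragment rule were among the largest changes the common term added. Khk, named for the fructose-phosphorylating enzyme ketohexokinase, rose by 1.74 on the log2 scale (adjusted p = 0.0144), with 1.33 in Ctrl and 2.24 in NT3, on a mean of 6.25 fragments per library. Znhit3, opposite Myo19, a mitochondrial myosin gene, rose by 1.14 (adjusted p = 0.0016) on 19.2 fragments, with 1.04 in Ctrl and 1.26 in NT3. Klf13, a zinc finger factor row, fell by 1.06 (adjusted p = 0.0191) on 14.1 fragments, and Hsf1, named for the heat shock factor, by 0.90 (adjusted p = 0.0447) on 16.9. These rows were chosen after their values were seen.

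Mmp27, the neighbour of the Mmp8 row on chromosome 9 and likewise named for a matrix metalloproteinase, rose by 1.30 (adjusted p = 3.1e-04), with 1.77 in Ctrl and 0.71 in NT3.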
